A study of Mus musculus with 12 samples.

Results

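The genes described here are 45 genes of DNA replication and S phase, the part of the cell cycle in which the genome is copied, in biopsies of mouse colon tumors. They were taken from a list of gene symbols that sets no threshold on measured values but was chosen with earlier results of these data known. Each symbol was read from the probe sets of the array that carry that symbol alone, and 45 of 45 were found among 19938 genes. With several probe sets the one with the highest mean over the 12 arrays was kept, which concerned Pcna and Tk1. The mice were F1 hybrids of SWR mothers and C57BL/6 fathers, carried the Min mutation in 1 copy of Apc (Apc Min/+), a brake of Wnt signalling, and drank 4% dextran sodium sulfate, which injures the colon lining, in 2 courses around weaning. All 12 biopsies share this genotype and treatment, so no untreated or Apc wild-type sample serves as a baseline. Each of 6 tumors, 1 per mouse, gave a late and an early biopsy, and each biopsy was hybridised to 1 Affymetrix mouse gene array. Late biopsies were taken at 280.0 ± 82.5 days of age and early ones at 94.3 ± 11.8 days (SD, n = 6 each). The late biopsy was read as intramucosal carcinoma, a cancer confined to the mucosa, in mice 2201, 3407 and 3413 at 267, 215 and 200 days, and as benign adenoma in the other mice, 1755, 1803 and 1805, at 234, 369 and 395 days. Mice 1755 and 3407 were female and mice 1803, 1805, 2201 and 3413 male, and sex was not a term in the fits. Early biopsies had no reading of their own and are called carcinoma-fated or adenoma-fated after the late biopsy of the same tumor. A biopsy is a bulk sample, so fewer cells of a type and less RNA per cell cannot be told apart in any value below.

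DNA replication starts when the origin recognition complex, Cdc6 and Cdt1 load the MCM helicase onto DNA in G1 phase. Cyclin E and its kinase then help to start the helicase, polymerases copy both strands behind it, and histones and methyl marks are put back on the new DNA. Many of these genes are transcribed as cells enter S phase under E2F transcription factors, which the retinoblastoma protein holds back in resting cells. In the colon the dividing cells lie in the lower crypt, and in tumors that have lost Apc dividing cells are not confined to that zone.

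The promoters of 6 of the genes are shown because the results turn on genes of these roles, 5 of them with letters of an E2F site and 1 without. RefSeq promoter windows (GRCm38.p6) were at hand for 37 of the 45 genes; each runs 5′ to 3′ along the gene, from 250 bases before to 50 bases after the annotated start, and there are 46 windows because some genes have several starts. The windows of Gmnn, Mcm4, Gins1, Gins2, Prim2, Pole, Rfc2 and Ccne2 were not used here. Capitals mark an exact match to 1 of 4 E2F sites searched on both strands, TTTCCCGC, TTTGGCGC, TTTCGCGC and TTTGCCGC, which can overlap one another. Mcm3, a helicase subunit, lies at chr1:20820263-20820562 (minus strand), Cdc6, a helicase loader, at chr11:98907901-98908200 (plus strand), and Pole2, a subunit of polymerase epsilon, at chr12:69228141-69228440 (minus strand). The second of the Uhrf1 windows, of a protein that reads hemimethylated DNA, lies at chr17:56304063-56304362 (plus strand), the first of the windows of E2f2, itself an E2F factor, at chr4:136172024-136172323 (plus strand), and that of Ccne1, a cyclin E gene, at chr7:38107441-38107740 (minus strand).
Mcm3: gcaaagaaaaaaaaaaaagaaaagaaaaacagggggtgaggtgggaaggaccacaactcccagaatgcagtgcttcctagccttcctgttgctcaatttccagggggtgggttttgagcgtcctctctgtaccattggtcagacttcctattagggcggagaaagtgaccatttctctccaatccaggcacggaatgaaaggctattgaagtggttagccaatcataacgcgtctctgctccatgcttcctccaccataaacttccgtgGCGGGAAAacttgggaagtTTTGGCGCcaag
Cdc6: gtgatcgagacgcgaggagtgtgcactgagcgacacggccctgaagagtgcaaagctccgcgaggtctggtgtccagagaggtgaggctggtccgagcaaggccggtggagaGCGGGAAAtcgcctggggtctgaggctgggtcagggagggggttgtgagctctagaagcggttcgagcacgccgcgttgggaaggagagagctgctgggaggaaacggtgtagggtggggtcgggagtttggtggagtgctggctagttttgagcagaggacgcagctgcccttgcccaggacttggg
Pole2: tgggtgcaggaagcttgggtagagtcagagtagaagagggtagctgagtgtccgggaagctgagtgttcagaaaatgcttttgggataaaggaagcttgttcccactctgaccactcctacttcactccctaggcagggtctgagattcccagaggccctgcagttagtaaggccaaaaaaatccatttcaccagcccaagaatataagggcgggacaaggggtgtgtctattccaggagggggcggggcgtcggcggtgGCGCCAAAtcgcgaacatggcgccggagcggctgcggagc
Uhrf1: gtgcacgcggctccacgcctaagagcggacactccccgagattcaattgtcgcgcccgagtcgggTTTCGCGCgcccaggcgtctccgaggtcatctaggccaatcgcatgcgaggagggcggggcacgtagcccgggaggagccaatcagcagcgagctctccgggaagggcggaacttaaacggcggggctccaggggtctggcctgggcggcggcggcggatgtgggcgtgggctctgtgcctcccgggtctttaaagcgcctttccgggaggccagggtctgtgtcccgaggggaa
E2f2: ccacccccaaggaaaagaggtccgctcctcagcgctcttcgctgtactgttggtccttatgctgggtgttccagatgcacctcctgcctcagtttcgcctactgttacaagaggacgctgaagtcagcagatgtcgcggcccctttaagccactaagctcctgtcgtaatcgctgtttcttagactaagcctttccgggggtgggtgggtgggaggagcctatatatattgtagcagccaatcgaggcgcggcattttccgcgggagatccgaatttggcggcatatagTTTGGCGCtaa
Ccne1: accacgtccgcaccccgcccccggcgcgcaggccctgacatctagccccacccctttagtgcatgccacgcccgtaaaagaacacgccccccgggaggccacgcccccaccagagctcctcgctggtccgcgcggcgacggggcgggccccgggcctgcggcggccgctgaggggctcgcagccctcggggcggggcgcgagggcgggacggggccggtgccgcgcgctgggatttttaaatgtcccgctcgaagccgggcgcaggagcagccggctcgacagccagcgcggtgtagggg

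The Mcm3 window held 2 matches, whose first bases lay 20 and 39 bases from the start, and the Ccne1 window held none of these letters. The Uhrf1 and E2f2 windows not shown, at chr17:56303087-56303386 and chr4:136180532-136180831, held 0 matches each. For these genes the window with a match was the one shown. An E2F match stood in the windows of 15 of 37 replication genes (40.5%), against 2.61% of the 27025 genes in the table. The 15 were Orc1, Cdc6, Cdt1, Mcm3, Mcm5, Mcm6, Mcm7, Pola1, Pold1, Pole2, Rfc3, Lig1, Uhrf1, Dnmt1 and E2f2. The CCAAT box (CCAAT, both strands) stood in 22 of 37 (59.5%) against 41.1% of all genes. The letters TTTGAA, searched on both strands and known from promoters of mitosis genes, stood in 6 of 37 (16.2%) against 20.2% of all genes, and in 14 of 19 mitosis genes (73.7%). Such matches describe letters in a window and were not measured as binding.

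The deposited values are log2 intensities, and every level and difference here is on that scale. All 45 genes had a mean level above the 25th percentile of all genes. The array medians over all probe sets lay between 7.62 and 7.80. A list of 12 epithelial markers (Epcam, Cdh1, keratins, Cdx1, Cdx2 and others) averaged 11.59 to 12.75 in late and 11.73 to 12.57 in early biopsies. On the late array of mouse 1805, read as adenoma, 42 of the 45 genes had their lowest value of the 12 arrays, and the erythroid markers Alas2 and Slc4a1 averaged 11.57, against 7.75 to 9.60 on the other late arrays. That array stands apart, so the counts over all 45 genes in the comparisons that hold mouse 1805 are also given without that mouse. Values are added for some of the genes it moved. Counts by role, by range of sample numbers and of correlations are given only over all mice.

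Replication genes were lower in the late than in the early biopsy of the same tumor, by small amounts, and no gene passed the test after adjustment over all genes. Of the 45 genes 43 had a lower mean in late biopsies, with a median difference of -0.22, while 57.9% of all genes were lower and their median was -0.02. At an unadjusted p under 0.05 (limma, paired by mouse) 31 of the 45 were lower and 0 higher. Among all genes 9.06% were lower and 5.68% higher by that rule. After Benjamini-Hochberg adjustment 0 of the 45 passed 0.05, as did 0% of all genes, and the lowest adjusted p of limma among the 45 was 0.206. Without mouse 2201, 17 of the 45 were lower at that p, and without mouse 1805, 21 were. Without mouse 1805 the mean was lower in late biopsies for 41 of the 45 genes; 13 genes then moved by over 1.5 times or changed sign, and 12 did without mouse 2201. Among the 13, Pole differed by -0.13, Pole2 by -0.18 and Mcm4 by -0.14 without mouse 1805, against -0.20, -0.29 and -0.21 over all mice.

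The mean level of the 45 genes was 9.49 ± 0.30 in late and 9.72 ± 0.24 in early biopsies (SD, n = 6 each), so the groups overlapped, while all 6 pairs pointed downwards. In mouse 2201 it was 9.53 late and 9.999 early, in mouse 3407 9.85 late and 9.94 early, and in mouse 3413 9.50 late and 9.63 early. In the adenoma mice it was 9.60 late and 9.81 early in 1755, 9.53 late and 9.58 early in 1803, and 8.94 late and 9.36 early in 1805. Mice 2201 and 1805 had the widest gaps, with 45 and 43 of the 45 genes lower and median differences of -0.44 and -0.42. The other mice had 38 (1755), 37 (3413), 32 (3407) and 29 (1803) genes lower, with medians of -0.18, -0.12, -0.09 and -0.05. Between 47.4% and 64.9% of all genes were lower in a mouse, the highest share being that of mouse 2201.

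**Figure D1:**
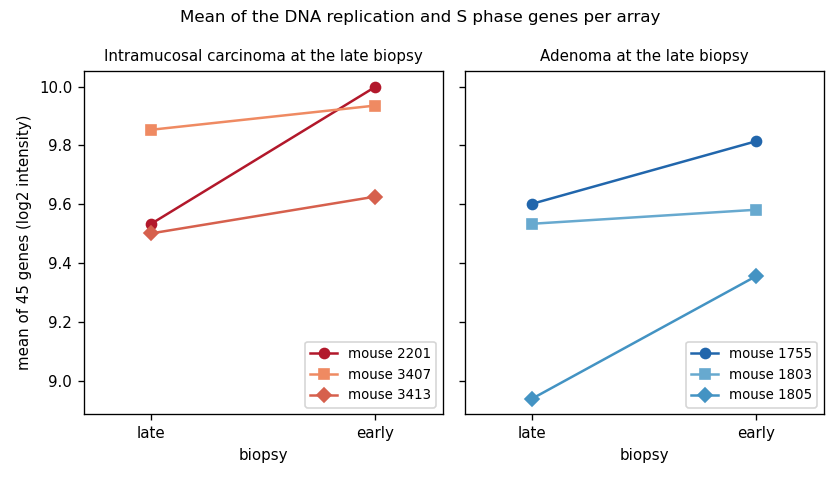
Mean log2 intensity of the 45 genes on each of the 12 arrays (vertical axis), with the late biopsy left of the early one, carcinoma tumors in the left panel and adenoma tumors in the right; lines join the biopsies of 1 mouse. Every line is higher at the early biopsy, and the late array of mouse 1805 is the lowest point at 8.94.

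Markers of other cells differed between the same biopsies. Late biopsies had higher means for 10 of 10 endothelial markers, 8 of them at an unadjusted p under 0.05 (limma), and the list averaged 9.71 to 10.13 in late and 8.43 to 10.07 in early biopsies. The same held for 10 of 10 fibroblast markers, 5 at that p, with averages of 11.01 to 11.50 in late and 9.57 to 11.68 in early biopsies. Neutrophil markers were higher for 7 of 8, 6 at that p (8.30 to 10.57 late, 7.49 to 9.09 early), and mast cell markers lower for 8 of 9, 3 at that p (7.17 to 9.03 late, 7.58 to 10.53 early). Erythroid markers were higher for 2 of 2, 1 at that p (7.75 to 11.57 late, 7.38 to 8.26 early), and epithelial markers lower for 7 of 12, 0 at that p. At that p 5.68% of all genes were higher and 9.06% lower. Array values have no zero, so no marker could be called absent. The part of these cells in the replication genes' difference was not tested.

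The submitters' own sample numbers also ran with time. The early arrays of mice 2201, 1755, 1803 and 1805 carry numbers from 155 to 255 and the other 8 arrays numbers from 319 to 379; their meaning is not given in the labels. In the 4 pairs that span this gap 42 of the 45 genes had a lower mean, with a median of -0.28. In the 2 pairs inside the second range, those of mice 3407 and 3413, 38 of 45 had a lower mean, with a median of -0.10. With the number range as a term in the fit, the late minus early difference is by construction that of these 2 pairs. It therefore gave the same 38 of 45 lower and median of -0.10, which is no separate check. By that fit 0 of the 45 genes were lower at an unadjusted p under 0.05 (limma), a count that rests on the difference in 2 pairs. The values of both kinds of pair ran downwards, and the share of the number range in the difference was not tested beyond that term. The mice with the larger endothelial and fibroblast differences above, 1755, 1803, 1805 and 2201, are those whose pairs span the gap.

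**Figure D2:**
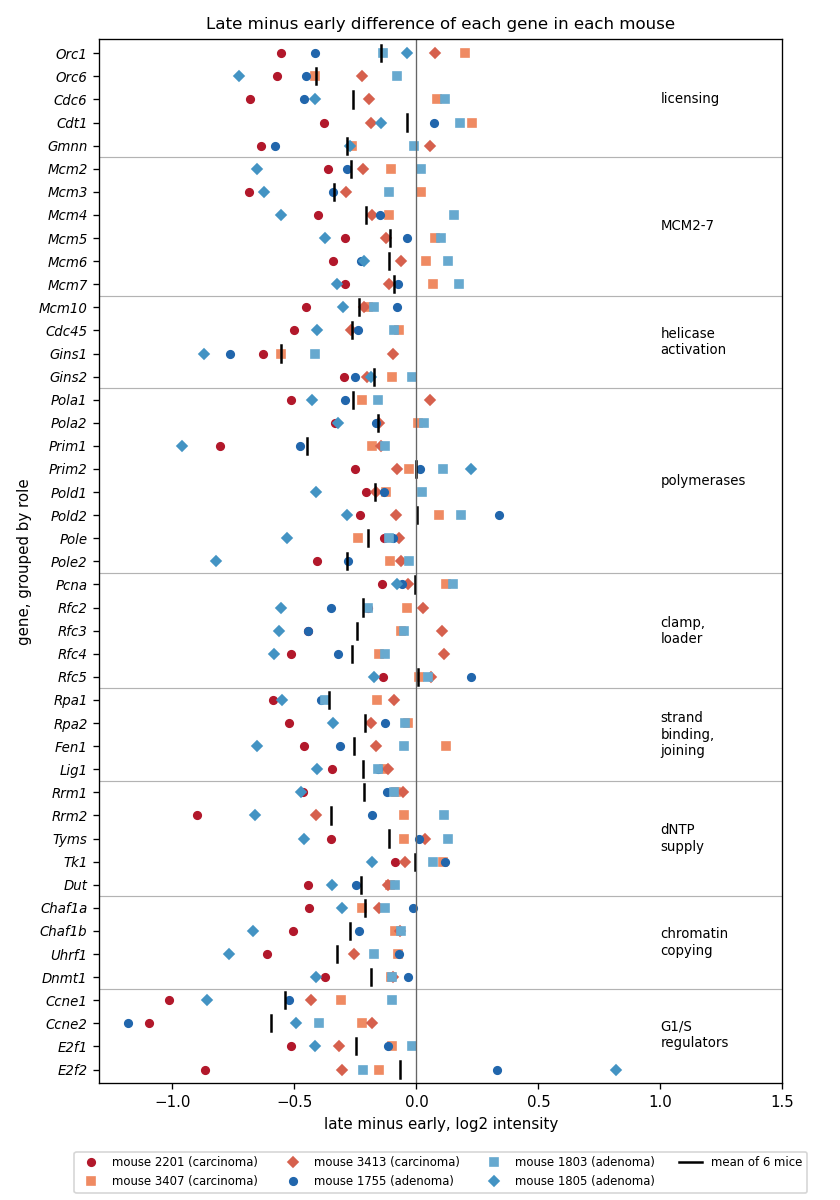
Late minus early difference in log2 intensity (horizontal axis) of each of the 45 genes (vertical axis, grouped by role) in each mouse, with carcinoma tumors in reds, adenoma tumors in blues and a black bar at the mean of the 6 mice. Most points lie left of 0, mice 2201 and 1805 have the lowest medians (-0.44 and -0.42), the lowest single point is Ccne2 in mouse 1755 at -1.18, and E2f2 spreads from -0.87 to 0.82.

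Among the genes that mark and license origins, 5 of 5 were lower in late biopsies and 2 of 5 at an unadjusted p under 0.05, with a median of -0.26. For this and each role or list below in late minus early, 9.06% of all genes were lower and 5.68% higher at that p. Orc6, a subunit of the origin recognition complex, ranged from 8.79 to 9.73 with a median of 9.41 in late and from 9.52 to 10.15 with a median of 9.80 in early biopsies. It was lower in 6 of 6 mice (log2 difference -0.41, SE 0.088, adjusted p of limma 0.21), although the late and early groups overlapped. Gmnn encodes geminin, which blocks Cdt1, and had 6.70 to 6.94 with a median of 6.88 in late and 6.85 to 7.49 with a median of 7.08 in early biopsies (difference -0.28, SE 0.103, adjusted p 0.29 by limma), lower in 5 of 6 mice. Orc1, another subunit of that complex, had 7.31 to 8.16 with a median of 7.52 in late and 7.35 to 8.34 with a median of 7.76 in early biopsies, which is a full overlap with a difference of -0.15 (SE 0.105), or -0.09 without mouse 1755 and -0.06 without mouse 2201. The helicase loaders Cdc6 and Cdt1 differed by -0.26 and -0.04, neither reached an unadjusted p under 0.05, and without mouse 2201 Cdt1 was higher by 0.03.

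The 6 subunits of the MCM ring, which unwinds DNA, were all lower on average in late biopsies, 2 of them at an unadjusted p under 0.05, with a median of -0.16. Those were Mcm3 (-0.34, SE 0.101, lower in 5 of 6 mice) and Mcm2 (-0.27, SE 0.088, lower in 5 of 6), whereas Mcm4, Mcm6, Mcm5 and Mcm7 differed by -0.21, -0.11, -0.11 and -0.09. Without mouse 1805 Mcm4 differed by -0.14, Mcm5 by -0.06 and Mcm7 by -0.05, without mouse 2201 Mcm6 and Mcm5 each by -0.07 and Mcm7 by -0.05, and without mouse 1803 Mcm7 by -0.15. Mcm7 had 10.07 to 11.20 with a median of 10.88 in late and 10.40 to 11.20 with a median of 10.89 in early biopsies, so its medians nearly coincided. In mouse 1803 Mcm3 alone of the 6 was lower in the late biopsy.

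The genes that turn the loaded ring into a working helicase gave 4 of 4 lower in late biopsies, 4 at an unadjusted p under 0.05, with a median of -0.25, and each was lower in 6 of 6 mice. Gins1, a subunit of the GINS complex, had the smallest p of the 45 genes. Its late values were 8.91, 9.03 and 8.82 in carcinoma mice 2201, 3407 and 3413 and 8.77, 8.86 and 8.09 in adenoma mice 1755, 1803 and 1805, and its early values in the same order were 9.53, 9.59, 8.92, 9.53, 9.28 and 8.96. The late value of mouse 3407 lay above the early values of mice 3413 and 1805 and the other late values below every early one, and the fitted difference was -0.55 (SE 0.100, 1.47-fold lower, adjusted p of limma 0.206). Mcm10, which helps to start the helicase, had 8.08 to 8.97 with a median of 8.81 in late and 8.38 to 9.42 with a median of 8.96 in early biopsies, which overlap although all 6 pairs pointed down (-0.24, SE 0.060). Cdc45, the helicase cofactor, had 8.18 to 9.04 with a median of 8.57 in late and 8.59 to 9.14 with a median of 8.80 in early biopsies (-0.26, SE 0.070). Gins2 had 8.77 to 9.25 with a median of 9.08 in late and 8.96 to 9.42 with a median of 9.22 in early biopsies (-0.18, SE 0.054).

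Among the polymerase and primase genes 7 of 8 were lower in late biopsies, 6 at an unadjusted p under 0.05, with a median of -0.18. Prim1, the catalytic subunit of primase, which lays the RNA primers, had 7.51 to 8.82 with a median of 8.39 in late and 8.47 to 9.14 with a median of 8.75 in early biopsies. It was lower in 6 of 6 mice with differences of -0.96 to -0.13 (fitted -0.45, SE 0.127), and the groups overlapped. Its partner Prim2 had 9.68 to 9.9985 with a median of 9.90 in late and 9.46 to 10.08 with a median of 9.93 in early biopsies and was lower in 3 of 6 mice, with a mean difference near 0. Pole, the catalytic subunit of the leading-strand polymerase epsilon, had 8.54 to 10.17 with a median of 9.88 in late and 9.07 to 10.25 with a median of 10.06 in early biopsies (-0.20, SE 0.071, lower in 6 of 6). Its accessory subunit Pole2 differed by -0.29, the polymerase alpha genes Pola1 and Pola2 by -0.26 and -0.16, and the polymerase delta gene Pold1 by -0.17. Pold2, the accessory subunit of delta, was lower in 3 of 6 mice and did not reach an unadjusted p under 0.05.

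The sliding clamp and its loader were mixed, with 4 of 5 genes lower in late biopsies, 3 of them at an unadjusted p under 0.05, and a median of -0.22. Pcna, the clamp that keeps polymerases on DNA, had 12.40 to 13.10 with a median of 12.85 in late and 12.48 to 12.98 with a median of 12.88 in early biopsies and differed by -0.0073 (SE 0.057). Its other probe set gave -0.0080. Of the loader genes Rfc2 had 8.60 to 9.39 with a median of 9.19 in late and 9.15 to 9.49 with a median of 9.36 in early biopsies (-0.22, SE 0.082), and Rfc3 had 8.96 to 9.83 with a median of 9.46 in late and 9.45 to 9.89 with a median of 9.74 in early biopsies (-0.24, SE 0.100). Both were lower in 5 of 6 mice with overlapping groups, as was Rfc4 with -0.27. Rfc5 was lower in only 2 of 6 mice, with 10.37 to 11.16 and a median of 11.11 in late and 10.54 to 11.22 and a median of 10.99 in early biopsies.

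Among the genes for binding single strands and joining new ones 4 of 4 were lower in late biopsies, 4 at an unadjusted p under 0.05, with a median of -0.24. Rpa1, the large subunit of the single-strand binding protein RPA, had 9.29 to 9.95 with a median of 9.66 in late and 9.76 to 10.23 with a median of 10.04 in early biopsies. It was lower in 6 of 6 mice, with differences of -0.59 to -0.09 and a fitted one of -0.36 (SE 0.079, adjusted p of limma 0.21). Rpa2 and Lig1, the ligase that seals Okazaki fragments, were also lower in 6 of 6 mice, with -0.21 and -0.22. Fen1, the nuclease that trims those fragments, had 7.63 to 8.47 with a median of 8.09 in late and 8.09 to 8.60 with a median of 8.32 in early biopsies (-0.25, SE 0.102, lower in 5 of 6).

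Of the genes that supply deoxynucleotides 5 of 5 were lower in late biopsies, 3 at an unadjusted p under 0.05, with a median of -0.21. Rrm1, the large subunit of ribonucleotide reductase, had 10.71 to 11.79 with a median of 11.47 in late and 11.18 to 11.93 with a median of 11.64 in early biopsies (-0.21, SE 0.078). It was lower in 6 of 6 mice, the groups overlapping, and so was Dut, which removes dUTP, with -0.23. Rrm2, the small subunit, differed by -0.35 and was lower in 5 of 6 mice. Thymidylate synthase Tyms and the salvage kinase Tk1 were each lower in 3 of 6 mice, with -0.11 and -0.0039. Without mouse 1805 Tyms differed by -0.04, and without mouse 2201 by -0.07. The other Tk1 probe set gave -0.16 and was lower in 5 of 6 mice, so the Tk1 value depends on the probe set.

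The genes that copy chromatin gave 4 of 4 lower in late biopsies, 4 at an unadjusted p under 0.05, with a median of -0.24, and each was lower in 6 of 6 mice. Uhrf1, whose second promoter window is shown above, had 8.44 to 10.01 with a median of 9.39 in late biopsies. In early biopsies it had 9.21 to 10.09 with a median of 9.63 (difference -0.33, SE 0.106). Its partner Dnmt1, the methyltransferase that copies CpG methylation, had 10.02 to 10.95 with a median of 10.70 in late and 10.43 to 11.17 with a median of 10.77 in early biopsies (-0.19, SE 0.068). Chaf1a, a subunit of the histone chaperone CAF-1, had 8.50 to 9.37 with a median of 9.09 in late and 8.80 to 9.59 with a median of 9.21 in early biopsies (-0.21, SE 0.065). The groups overlapped for all 3 genes, and the other CAF-1 subunit Chaf1b differed by -0.27.

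The regulators of S phase entry had the lowest median of the roles, with 4 of 4 genes lower in late biopsies, 3 at an unadjusted p under 0.05, and a median of -0.39. Ccne1 and Ccne2 encode the E cyclins, which drive the kinase Cdk2 at S phase entry. Late Ccne1 values were 9.20, 10.10 and 9.39 in carcinoma mice 2201, 3407 and 3413 and 9.55, 9.74 and 8.84 in adenoma mice 1755, 1803 and 1805, and early values in the same order were 10.21, 10.40, 9.82, 10.07, 9.84 and 9.70. Only the late values of mice 3407 and 1803 reached into the early range, and the fitted difference was -0.54 (SE 0.121, 1.45-fold lower, adjusted p of limma 0.219).

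Ccne2 had 8.49, 9.43 and 8.74 in the late carcinoma biopsies of mice 2201, 3407 and 3413 and 8.94, 9.15 and 8.66 in the late adenoma biopsies of mice 1755, 1803 and 1805. Early Ccne2 values in the same order were 9.59, 9.65, 8.92, 10.12, 9.54 and 9.15. It was lower in 6 of 6 mice, by more than a log2 unit in mice 2201 and 1755, with a fitted difference of -0.59 (SE 0.151, 1.51-fold lower, adjusted p of limma 0.236). The transcription factor E2f1 was lower in 6 of 6 mice with -0.25 (SE 0.078).

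E2f2, another activating E2F factor, had no common direction, and its difference of -0.07 was -0.24 without mouse 1805 and 0.10 without mouse 2201. Its late values were 8.18, 8.63 and 8.09 in carcinoma mice 2201, 3407 and 3413 and 9.04, 8.34 and 9.16 in adenoma mice 1755, 1803 and 1805. Its early values in the same order were 9.05, 8.78, 8.40, 8.70, 8.56 and 8.34. E2f2 was lower in all 3 carcinoma pairs, and in adenoma pairs higher by 0.82 in mouse 1805 and by 0.33 in mouse 1755. In the same pairs the erythroid markers differed by -0.52, 1.02 and 0.27 in the carcinoma mice 2201, 3407 and 3413 and by 1.04, 1.88 and 4.03 in the adenoma mice 1755, 1803 and 1805, and their part in the E2f2 values was not tested.

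**Figure D3:**
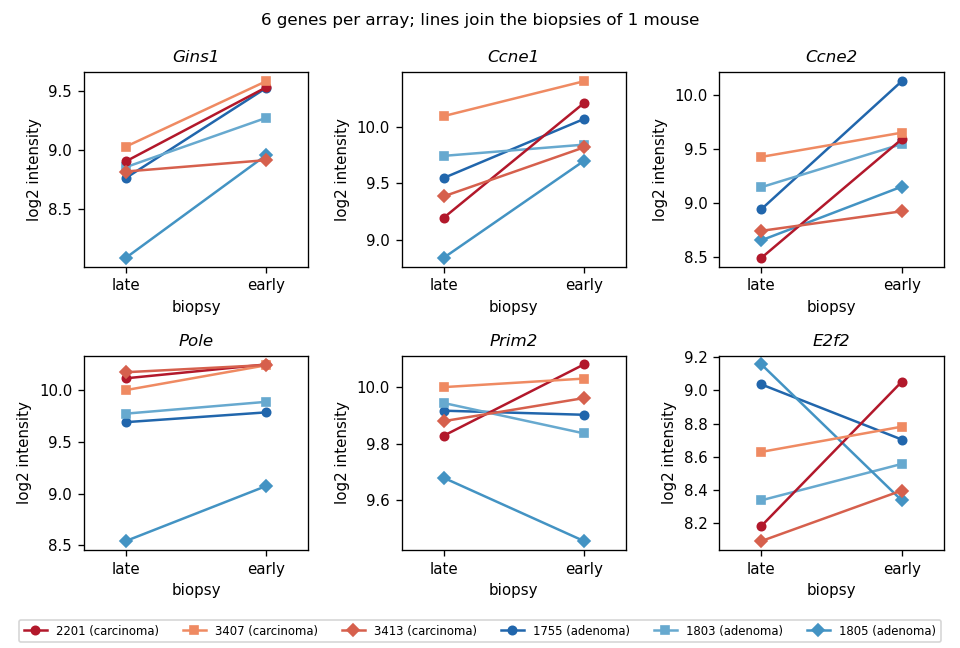
Log2 intensity (vertical axis) of Gins1, Ccne1, Ccne2, Pole, Prim2 and E2f2 on each array, late biopsy left and early biopsy right, with lines joining the biopsies of 1 mouse (carcinoma in reds, adenoma in blues). Gins1, Ccne1 and Ccne2 are lower at the late biopsy in 6 of 6 mice, while Prim2 and E2f2 lines cross.

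Other replication genes outside the 45 were listed too, among them further helicase, fork and licensing genes, and 33 of 40 were lower in late biopsies, 15 at an unadjusted p under 0.05 and 0 higher, with a median of -0.12. Gins3, a GINS subunit, differed by -0.24 (SE 0.054), the fork protection gene Timeless by -0.22 (SE 0.052), the helicase gene Mcm8 by -0.28 (SE 0.074) and Rnaseh2a, the catalytic subunit of RNase H2, by -0.24 (SE 0.069). Each of these 4 was lower in 6 of 6 mice, and the lowest adjusted p of limma among them was 0.211. Of 20 other nucleotide synthesis genes 18 were lower, 3 at an unadjusted p under 0.05 (Tk2, Nme1 and Gmps with -0.22, -0.25 and -0.24), while Prps1, which makes the ribose precursor of nucleotides, was higher by 0.29 (SE 0.076) in 6 of 6 mice.

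The network around the retinoblastoma protein gave 17 of 29 lower (58.6%, against 57.9% of all genes), 4 at an unadjusted p under 0.05 (13.8%, against 9.06% of all genes), with a median of -0.03. Cdkn1c, an inhibitor of cyclin-dependent kinases, differed by -0.46 (SE 0.089) and was lower in 6 of 6 mice. E2f5, an E2F factor linked to repression, the cyclin E partner Cdk2 and the ubiquitin ligase gene Skp2 differed by -0.22, -0.18 and -0.21. Mitosis genes gave 17 of 21 lower, 1 of them, the kinetochore gene Ndc80 (-0.20), at an unadjusted p under 0.05 (4.76%, below the 9.06% of all genes), with a median of -0.07. The proliferation marker Mki67 differed by 0.03 (SE 0.093) and Top2a, a topoisomerase of dividing cells, by -0.13 (SE 0.094), while the Wnt targets Ccnd1 and Myc differed by 0.04 and -0.13. The mitosis list averaged -0.17, -0.12 and 0.17 in the carcinoma mice 2201, 3407 and 3413 and 0.17, -0.13 and -0.31 in the adenoma mice 1755, 1803 and 1805. Whether the replication and the mitosis lists differed from one another was not tested.

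**Figure D4:**
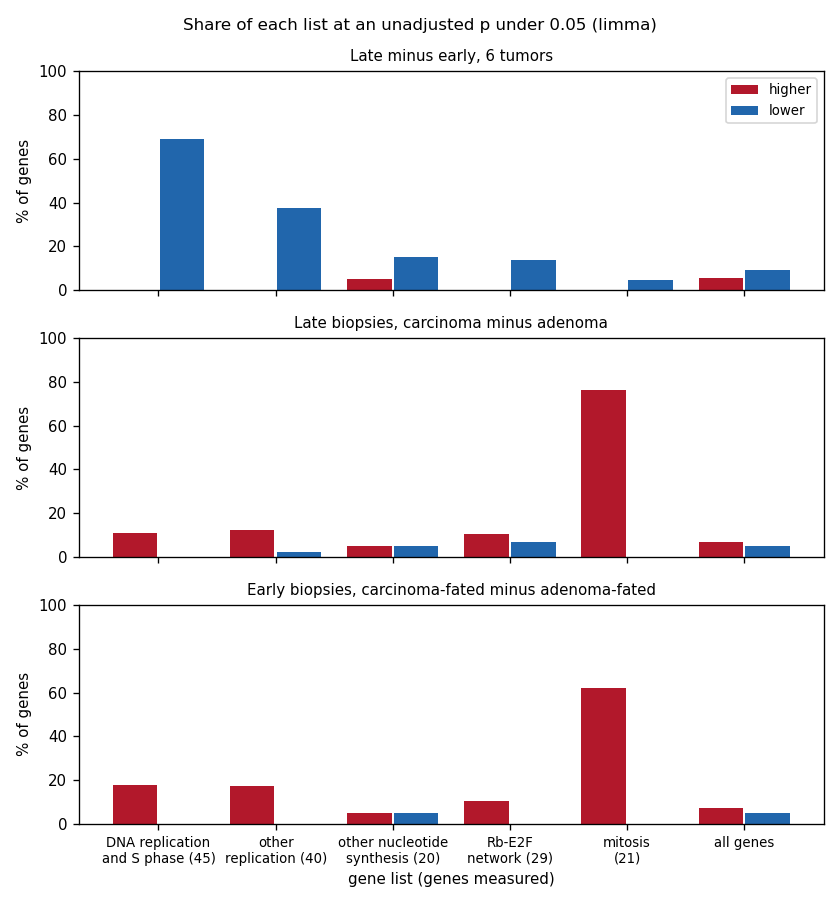
Share of the genes of each list (vertical axis, percent) that were higher (red) or lower (blue) at an unadjusted p under 0.05 by limma, with all genes at the right of each panel and the number of measured genes in brackets. In the top panel, late minus early, the replication list stands at 68.9% lower against 9.06% of all genes; in the lower panels, carcinoma minus adenoma, the mitosis list has the tallest red bars of the lists drawn, 76.2% in late and 61.9% in early biopsies. Cell type lists are not drawn.

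Replication genes had lower means in late biopsies in both pathologies, in adenoma tumors only while the range of sample numbers was left out of the fit. In carcinoma tumors 45 of 45 genes were lower in the late biopsy, with a median of -0.20, and the mean over the genes differed by -0.22 ± 0.21 (SD, n = 3). In adenoma tumors 38 of 45 were lower, with a median of -0.23, and the mean over the genes differed by -0.23 ± 0.19 (SD, n = 3). The share of all genes lower without a p threshold is not given by pathology, so these counts have no baseline. At an unadjusted p under 0.05 (limma, 1 fit over all arrays) 9 genes were lower and 0 higher in carcinoma tumors, where 2.61% of all genes were lower and 1.7% higher. In adenoma tumors 12 genes were lower and 0 higher, where 10.7% of all genes were lower and 7.38% higher. After adjustment 0 of the 45 genes and 0% of all genes passed in carcinoma tumors, and 0 of the 45 and 0.125% of all genes passed in adenoma tumors, by limma. Without mouse 2201 the carcinoma count was 0, 38 of 45 genes were lower and the median was -0.10. Without mice 1755, 1803 and 1805 in turn the adenoma count was 5, 19 and 4, and without mouse 1805 34 of the 45 genes were lower, with a median of -0.13.

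The range of sample numbers bears on both values. All 3 adenoma pairs span the gap, so no adenoma pair lies inside 1 range. The size of the term then rests on the carcinoma pairs, of which only that of mouse 2201 spans the gap. With the range as a term the adenoma median turned to 0.12, with 36 of 45 genes higher in late biopsies, and 0 genes reached an unadjusted p under 0.05 by limma. In carcinoma tumors the term gave a median of -0.10, 38 of 45 genes lower and 0 at that p. These differences are by construction those of mice 3407 and 3413, as without mouse 2201.

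The genes with the smallest p in carcinoma tumors were Mcm10, Ccne1, Gins1, Orc6 and Chaf1a. Mcm10 had 8.97, 8.93 and 8.70 in late and 9.42, 9.12 and 8.92 in early biopsies of mice 2201, 3407 and 3413 (-0.29, SE 0.085, adjusted p of limma 0.952). Chaf1a had 9.15, 9.37 and 9.03 in late and 9.59, 9.59 and 9.18 in early biopsies of those mice. Without mouse 2201 the carcinoma difference of Ccne1 was -0.37, against -0.59 over all 3 mice. In adenoma tumors they were Gins1 (-0.68, SE 0.134, adjusted p of limma 0.0969), Rpa1 (-0.44, SE 0.110), Rfc2 (-0.37, SE 0.093), Orc6 (-0.42, SE 0.133) and Ccne2 (-0.69, SE 0.221). Without mouse 1805 Orc6 differed by -0.27, and without mouse 1755 Ccne2 differed by -0.45. With the range of sample numbers as a term Rpa1 turned to 0.02 and Ccne2 to 0.20, and Gins1, Rfc2 and Orc6 differed by -0.38, -0.17 and -0.17. Late Rpa1 was 9.57, 9.77 and 9.29 and late Orc6 9.42, 9.64 and 8.79 in adenoma mice 1755, 1803 and 1805, against early values of 9.97, 10.15 and 9.84 for Rpa1 and 9.88, 9.72 and 9.52 for Orc6. Rfc2 had 9.14, 9.10 and 8.60 in late and 9.49, 9.30 and 9.15 in early biopsies of the adenoma mice 1755, 1803 and 1805, so late lay below early in each tumor. In carcinoma mice 2201, 3407 and 3413 Rfc2 had 9.26, 9.39 and 9.24 in late and 9.46, 9.43 and 9.21 in early biopsies, which overlap.

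The test of the difference between the changes, carcinoma minus adenoma, had 23 of the 45 genes below 0 and 22 above, with a median of -0.0086. The changes span unlike times, from 95 to 267, 87 to 215 and 117 to 200 days of age in carcinoma mice 2201, 3407 and 3413. In adenoma mice 1755, 1803 and 1805 they span 94 to 234, 87 to 369 and 86 to 395 days. One gene was lower and 0 higher at an unadjusted p under 0.05, where 3.37% of all genes were lower and 3.68% higher, and 0 of the 45 passed after adjustment (limma), as did 0% of all genes. That gene was E2f2, with a difference of -0.75 (SE 0.301, adjusted p of limma 0.706). Without mice 1755, 1805 and 3413 in turn the count was 0, and without mice 1803 and 2201 in turn it was 2. Rfc2 differed by 0.30 (SE 0.131), Prim2 by -0.24 (SE 0.114), Gins1 by 0.26 (SE 0.189) and Rfc3 by 0.22 (SE 0.195). With the range of sample numbers as a term 42 of the 45 genes were below 0, with a median of -0.22, and Rfc3 turned to -0.09. That fit by construction sets the pair of mouse 2201 against the adenoma pairs. Without mouse 1803, 10 of 45 were below 0 (median 0.10), and without mouse 2201, 8 were (median 0.10). Without mouse 1805, 36 of the 45 genes were below 0 and 9 above, with a median of -0.09, and E2f2 differed by -0.50, Gins1 by 0.16 and Rfc3 by 0.11. Leaving out other mice moved Gins1 between 0.09 (without 3413) and 0.39 (without 1803) and Rfc3 between 0.10 (without 3413) and 0.37 (without 1803 or 2201). Prim2 was 9.83, 9.9985 and 9.88 in late and 10.08, 10.03 and 9.96 in early biopsies of the carcinoma mice 2201, 3407 and 3413, lower in each. In the adenoma mice 1755, 1803 and 1805 Prim2 was 9.92, 9.94 and 9.68 in late and 9.90, 9.84 and 9.46 in early biopsies, higher in each.

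Markers of other cells also differed in this contrast, where 3.37% of all genes were lower and 3.68% higher at an unadjusted p under 0.05 by limma. Neutrophil markers were lower for 8 of 8, 6 at an unadjusted p under 0.05 by limma, with late minus early averages of -0.80, 0.37 and 1.09 in the carcinoma mice 2201, 3407 and 3413 and 1.26, 1.59 and 2.46 in the adenoma mice 1755, 1803 and 1805. Endothelial markers were lower for 10 of 10, 4 at that p. Their late minus early averages were 1.17, 0.04 and -0.09 in carcinoma mice 2201, 3407 and 3413 and 1.12 to 1.45 in adenoma mice. The pairs of mouse 2201 and of the adenoma mice span the gap of sample numbers. Fibroblast markers were lower for 10 of 10, 3 at that p (-0.60 to 0.94 in carcinoma and 0.50 to 1.93 in adenoma mice), and erythroid markers for 2 of 2, both at that p. The part of these cells in the replication genes' values was not tested.

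Between pathologies the replication genes had higher means in carcinoma than in adenoma tumors at both times, with wide errors. The same mice stand on each side at both times, so the late and early comparisons are not independent. Mouse 1805, adenoma, had the lowest mean at both times (8.94 late, 9.36 early). Late carcinoma biopsies were taken at 227.3 ± 35.2 days of age and late adenoma ones at 332.7 ± 86.4 days (SD, n = 3 each). Pathology and age thus cannot be told apart in the late comparison. The mean over the 45 genes was 9.63 ± 0.19 in late carcinoma and 9.36 ± 0.36 in late adenoma biopsies (SD, n = 3 each), and 9.85 ± 0.20 in carcinoma-fated and 9.58 ± 0.23 in adenoma-fated early biopsies (SD, n = 3 each). In late biopsies 43 of 45 genes were higher in carcinoma, with a median of 0.26, all but Ccne2 and E2f2. The share of all genes higher without a p threshold is not given here, so that count has no baseline. Ccne2, at -0.03, turned higher without mice 1803, 2201 or 3413. By limma 5 genes were higher and 0 lower at an unadjusted p under 0.05, where 6.74% of all genes were higher and 5% lower, and 0 of the 45 and 0% of all genes passed after adjustment. The share of the replication genes, 11.1%, is of the same order as that of all genes. Without mouse 1805, 34 of 45 genes were higher, the median was 0.08 and the count was 1, and without mouse 3407 the median was 0.15 and the count was 1. Without mice 2201, 3413, 1803 and 1755 in turn the count was 2, 3, 10 and 17.

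The 5 genes were Pole, Rfc2, Rrm1, Cdc45 and Dnmt1. Late Pole values were 10.11, 9.9984 and 10.17 in carcinoma mice 2201, 3407 and 3413 and 9.69, 9.77 and 8.54 in adenoma mice 1755, 1803 and 1805. The groups did not overlap, and the difference was 0.76 (SE 0.270, 1.69-fold higher, adjusted p of limma 0.402), or 0.36 without mouse 1805. Late Rrm1 values were 11.47, 11.79 and 11.63 in carcinoma and 11.46, 11.43 and 10.71 in adenoma biopsies of the same mice (0.43, SE 0.184), which lie side by side apart from mouse 1805. Late Dnmt1 values were 10.79, 10.95 and 10.71 in carcinoma and 10.69, 10.63 and 10.02 in adenoma biopsies (0.37, SE 0.164), likewise without overlap by a narrow margin. All of these genes were named for their small p, and the share of all genes without overlap was not counted. Late Cdc45 values were 8.64, 9.04 and 8.57 in carcinoma and 8.52, 8.58 and 8.18 in adenoma biopsies of the same mice, which overlap narrowly. Rfc2 differed by 0.35 (SE 0.138) and Cdc45 by 0.32 (SE 0.143), and E2f2 by -0.54 (SE 0.247). Without mouse 1805 the differences were 0.18 for Rfc2, 0.18 for Rrm1, 0.20 for Cdc45 and 0.16 for Dnmt1, and without mouse 3407 that of Cdc45 was 0.18.

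In early biopsies 44 of 45 genes were higher in carcinoma-fated than in adenoma-fated tumors, with a median of 0.29. Ccne2 was the exception (-0.22, but 0.04 without mouse 1755 and 0.01 without mouse 3413). Here too the share of all genes higher without a p threshold is not given. By limma 8 genes were higher and 0 lower at an unadjusted p under 0.05 (17.8%), where 7.06% of all genes were higher and 4.9% lower, and 0 of the 45 and 0% of all genes passed after adjustment. They were Mcm7, Mcm10, Cdc45, Prim2, Pole, Rfc5, Chaf1a and Dnmt1. Early Pole values were 10.25, 10.24 and 10.24 in carcinoma-fated mice 2201, 3407 and 3413 and 9.78, 9.89 and 9.07 in adenoma-fated mice 1755, 1803 and 1805 (0.66, SE 0.270, adjusted p of limma 0.377). Early Rfc5 values were 11.22, 11.15 and 11.08 in carcinoma-fated and 10.91, 10.85 and 10.54 in adenoma-fated tumors of the same mice (0.38, SE 0.158). Early Mcm7 values were 11.20, 11.14 and 10.97 in carcinoma-fated and 10.82, 10.75 and 10.40 in adenoma-fated tumors, and early Cdc45 values 9.14, 9.11 and 8.83 against 8.76, 8.67 and 8.59. The groups did not overlap for any of these 4 genes, and the 6 genes other than Pole and Rfc5 differed by 0.29 (Prim2) to 0.44 (Mcm7 and Mcm10). These 4 genes were named for their small p, and the share of all genes without overlap was not counted.

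The early values moved with single mice. Without mouse 1805, 38 of 45 genes were higher, the median was 0.18, the count was 6, and Pole differed by 0.41, Prim2 by 0.15 and Mcm10 by 0.28. Without mouse 2201 or mouse 3407 the count was 0, without mice 1803 and 3413 it was 3 and 4, and without mouse 1755 it was 16. Of the early arrays those of all 3 adenoma-fated tumors and of mouse 2201 lie in the first range of sample numbers and those of mice 3407 and 3413 in the second. With that range as a term 45 of 45 genes were higher, and the median was 0.46. By construction that result leans on the early array of mouse 2201, the only carcinoma-fated one in the first range. It is therefore no separate check. Late arrays all lie in the second range, so the late comparison does not cross it.

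**Figure D5:**
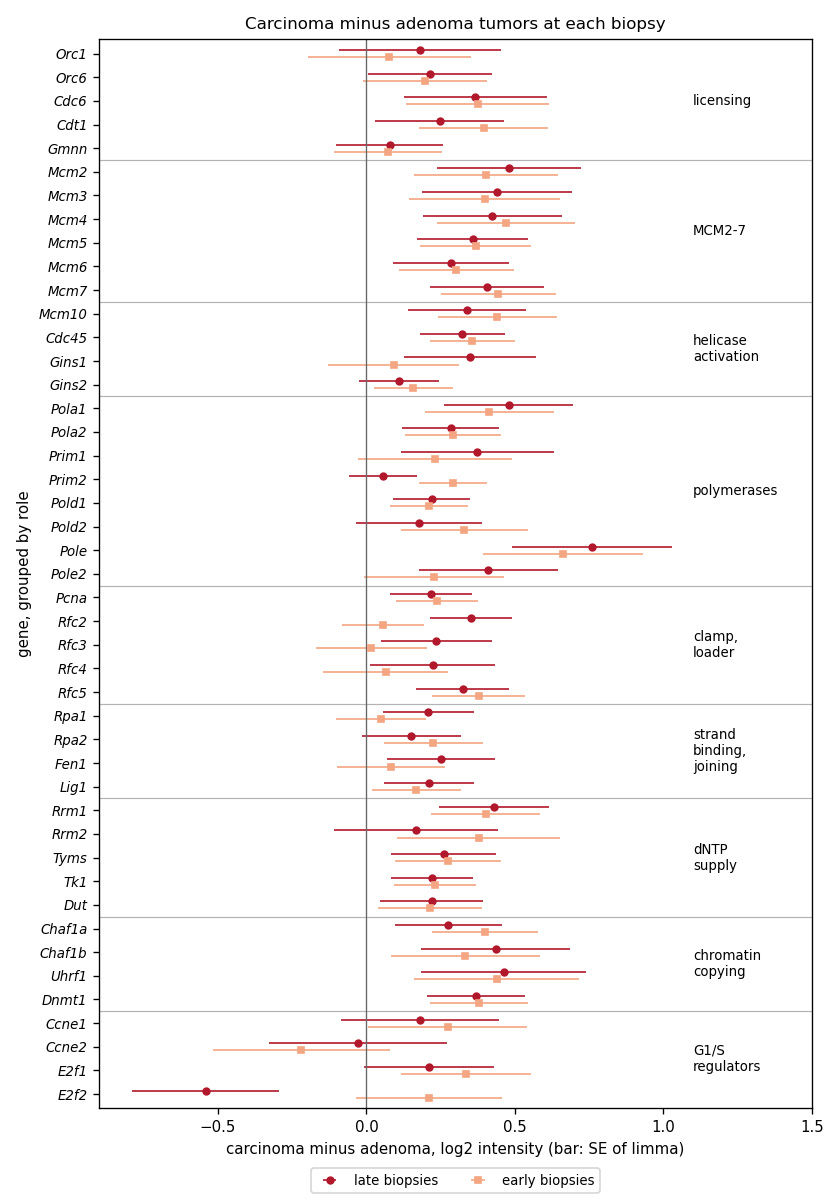
Carcinoma minus adenoma difference in log2 intensity (horizontal axis) of each of the 45 genes (vertical axis, by role) in late (dark circles) and early (light squares) biopsies; bars are the SE of limma. Most differences lie right of 0 at both times with bars of a like size, Pole farthest right at 0.76 and 0.66, and E2f2 is at -0.54 in late and 0.21 in early biopsies (0.06 without mouse 2201).

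Other lists gave the following in the same comparisons. Mitosis genes were higher in late carcinoma for 21 of 21, 16 at an unadjusted p under 0.05 by limma, with a median of 0.42, and in early carcinoma-fated tumors for 21 of 21, 13 at that p, with a median of 0.39. Other replication genes were higher for 39 of 40 in late and 33 of 40 in early biopsies, 5 and 7 of them at that p. Of all genes 6.74% were higher and 5% lower at that p in late biopsies. In early biopsies 7.06% were higher and 4.9% lower. Epithelial markers were lower in late carcinoma for 12 of 12, 8 at that p, and averaged 11.59 to 11.95 there, against 11.96 to 12.75 in late adenoma biopsies. Erythroid markers were lower for 2 of 2 at that p and averaged 7.75 to 8.40 in late carcinoma and 8.47 to 11.57 in late adenoma biopsies. Neutrophil markers were lower for 8 of 8, 2 at that p (8.30 to 9.26, against 9.07 to 10.57), and macrophage markers higher for 7 of 8, 2 at that p (9.78 to 10.45, against 9.51 to 9.97). In early biopsies endothelial markers were higher in carcinoma-fated tumors for 10 of 10, 7 at that p (8.86 to 10.07, against 8.43 to 8.84 in adenoma-fated tumors). Fibroblast markers were higher there for 10 of 10, 5 at that p (10.23 to 11.68, against 9.57 to 10.51), and neutrophil markers for 7 of 8, 4 at that p, with 1 lower at that p (8.17 to 9.09, against 7.49 to 8.22). Epithelial markers were lower there for 11 of 12, 4 at that p (11.73 to 12.22, against 12.19 to 12.57). The early endothelial average was 8.86 in mouse 2201, whose early array shares the first range of sample numbers with the adenoma-fated tumors. It was 9.67 and 10.07 in mice 3407 and 3413, in the second range. The early fibroblast averages were 10.23, 10.91 and 11.68 in mice 2201, 3407 and 3413. The part of these cells in the replication genes' differences was not tested.

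Most of the 45 genes ran together across arrays. Over the 990 pairs of genes the median Pearson r across the 12 arrays, which come from 6 mice and give all genes of an array the same RNA and scale, was 0.849, with 638 pairs above 0.8 and 19 below 0. Against the mean of the other 44 genes 29 genes reached r above 0.9, from Mcm3 (0.990), Uhrf1 (0.982) and Lig1 (0.982) downwards. The 4 genes least like the rest were E2f2 (0.03), Ccne2 (0.65), Gmnn (0.70) and Prim2 (0.76). Pole, which spans 1.70 log2 units, reached 0.80, and Prim2 spans 0.62. No such r is given for all genes or without mouse 1805, whose late array was the lowest for 42 of the 45. How far that array carries these r was not tested.

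Outside the list the genes whose levels ran most like the mean of the 45 over the 12 arrays were Dtl (r = 0.988), Wdhd1 (0.982), Hells (0.981), Topbp1 (0.978), Atad5 (0.977), Ipo5 (0.973), Gart (0.971), Gcn1 (0.971), Zfp367 (0.971) and Pfas (0.970). Dtl helps to degrade Cdt1 in S phase, Wdhd1 ties the helicase to polymerase alpha, Atad5 unloads Pcna, and Gart and Pfas make purines. Hells, a chromatin remodeler, differed by -0.48 (SE 0.143) between late and early biopsies and was lower in 6 of 6 mice, and Dtl by -0.30 (SE 0.116) and in 5 of 6. Running most opposite were Mgrn1 (-0.948), Rabgap1l (-0.947), Snrk (-0.940), Mif4gd (-0.930) and Prkcd (-0.928). These r too include the late array of mouse 1805.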

How the data were processed

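Expression was measured on 12 Affymetrix mouse gene arrays, 1 for each late and early biopsy of 6 mice. The values deposited by the authors are taken as log2 intensities from their range and the array medians; the summarisation and normalisation are not given in the sources used here. No normalisation was added. Among 35557 probe sets, 21789 name a single gene, 1621 name several and 12147 name no gene; 21698 matched a RefSeq gene table (GRCm38.p6), which changed 0 symbols. The brightest probe set was kept for the 999 genes with several.

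Genes were compared in limma 3.58.1 (R 4.3.3) with lmFit and eBayes, 2-sided, with Benjamini-Hochberg adjustment over 19938 genes and a threshold of 0.05. Late against early used mouse as a fixed block (residual degrees of freedom 5, and 4 by pathology), and carcinoma against adenoma used mouse as a random block (consensus correlation 0.286, residual degrees of freedom 8). The pairing comes from the animal; deviations of its 2 arrays correlated at 0.110 to 0.527, and for 5 of 6 mice the late array most like the early one was the mouse's own, while early 2201 was most like late 3407. Different mice are the replicates, and the number of arrays limits the precision. The fit was tested on simulated data. The alternatives were quantile normalisation, a filter at the 25th percentile, the mean over probe sets, a trended robust prior, no replicate block, the range of sample numbers as a term, and leaving out each mouse.

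The members and lists were chosen with earlier results of these data known. Differences are given for the members by role, and values per array, or their lowest, median and highest, for the 5 smallest p of each comparison and the highest, lowest, widest and narrowest 3 genes. Outside the members the rule named up to 4 genes of each pathway list by p, the 10 most and 5 least alike genes, and Mki67, Top2a, Ccnd1 and Myc.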

Additional observations from a re-analysis of the deposited data

Results flagged for a closer look

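For 24 named genes and the mean of all 45, 75 sets of 6 values (late levels, early levels, late minus early differences) were checked for 1 value far from the others, and 8 were marked; chance marks about 1 in 20 sets, and the sets are not independent, since these genes moved together. All 8 concern mouse 1805, adenoma. Its late biopsy lay far below the other 5 late ones in Gins1 (8.09), Prim1 (7.51), Pole (8.54), Rfc2 (8.60), Rfc5 (10.37), Rrm1 (10.71) and Dnmt1 (10.02). Its late minus early difference in Pole, -0.53, also stood apart. The same late array had the highest erythroid average, 11.57, and its lymphocyte markers averaged 8.21 late and 9.90 early; their part in these values was not tested.

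Prim2 differed between pathologies in direction: every carcinoma pair was lower and every adenoma pair higher in the late biopsy, with a difference of changes of -0.24 (SE 0.114, unadjusted p 0.0793, adjusted p of limma 0.732).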

How the results depend on the processing

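In each of the 6 comparisons 0 of the 45 genes passed the adjusted threshold in limma under each setting tried. Counts at an unadjusted p under 0.05 were less steady. Late against early, 31 genes were lower with the pairing by mouse, 7 with no replicate block, 0 with the range of sample numbers as a term, and 17 to 32 without 1 mouse at a time; the 7 were all among the 31, as were 17 of 17 without mouse 2201. The adenoma count of 12 was 4 with no replicate block, 0 with the range term and 4 to 19 without 1 mouse. The carcinoma count of 9 was 0 with no replicate block, 0 with the range term and 0 to 13 without 1 mouse. The late carcinoma against adenoma count of 5 was 2 with no replicate block and 1 to 17 without 1 mouse, and the early count of 8 was 3 with no replicate block and 0 to 16. The difference of changes had a median of -0.0086, which was 0.0057 with the mean over probe sets, -0.22 with the range term and -0.094 to 0.10 without 1 mouse; its count of 1 was 2 after quantile normalisation and 0 to 2 without 1 mouse. With the range term the adenoma median was 0.12, and Rpa1 (0.021) and Ccne2 (0.20) in adenoma and Rfc3 (-0.090) in the difference of changes turned sign. No adenoma pair lies inside 1 range, so those values rest on other arrays by construction. Late against early and in carcinoma tumors, the range term leaves the difference in the pairs of mice 3407 and 3413. The causes of the other moves were not tested. Single genes were followed through the settings only for the 5 smallest p of each comparison, and their differences kept their sign in the other 357 values, those 3 being the exceptions.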
